A study of Homo sapiens with 6 samples.

Results

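The protease inhibitor genes described here are the relatives of SPINK2, the gene silenced in this study, together with the serpin, cystatin and TIMP families. They were chosen by name: all genes called SPINK, SERPIN (clades A to I), CST or TIMP followed by their number or letter, with SLPI, PI3, A2M, SPINT1 and SPINT2 added. The rule took 85 of the 63236 gene entries of the table. Of these 85 entries, 72 were protein-coding genes, 7 were cystatin pseudogenes and 6 were second identifiers of a serpin symbol, and all 13 of the latter kinds were listed at 0. The rule also took CSTF1, CSTF2, CSTF2T and CSTF3, which encode the cleavage stimulation factor of mRNA 3′ end processing and no protease inhibitors. Without them 68 genes of inhibitor families remained. These are called inhibitor genes below, although some of them, such as SERPINF1 and SERPINH1, encode serpins without protease inhibiting activity.

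RNA-seq was carried out on FUJIOKA, an established human acute myeloid leukaemia cell line. Stable lines were made with Tet-pLKO-puro, a lentiviral vector whose shRNA is switched on by doxycycline, and transduced cells were selected with puromycin. The study describes continuous doxycycline for the transduced cells, and its text does not give the time of harvest for RNA-seq. The 3 libraries labelled shNEG and the 3 labelled shSPINK2 all came from this line. The control construct carried a scrambled shRNA. The labels describe 2 SPINK2-targeting shRNAs. The study's methods give 1, with the sequence of the shRNA1 target below, and the library labels do not name the shRNA. Nothing states that the replicates came from separate transductions. In bulk RNA, fewer cells with a transcript and less transcript per cell cannot be told apart.

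The table gave 1 level per gene, the mean normalized count over all 6 libraries of both groups, and levels below are that mean unless a library is named. A comparison of shSPINK2 with shNEG was therefore not made here, and whether any inhibitor moves with silencing is not answered by these values. Reads of individual libraries could be recovered for genes of low level, as the mean is a sum of whole reads with 6 known weights. The recovered libraries have no label and are called library 1 to library 6.

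Proteases and their inhibitors are paired by class. SPINK proteins carry Kazal domains that block trypsin-like serine proteases, serpins trap serine proteases (and some cysteine proteases) in a covalent complex after being cleaved, cystatins occupy the active site of papain-like cathepsins, and TIMPs bind the zinc site of matrix metalloproteinases. Myeloid cells are known for storing elastase, proteinase 3 and cathepsin G in granules, and for cytosolic serpins that protect the cell when such granules leak.

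The cells carried the markers of their label. Of 12 myeloid leukaemia markers 10 had a mean of at least 10, with CEBPA at 32858, MYB at 23329, SPI1 at 10673, PTPRC at 9179, CD33 at 7777, HOXA9 at 6053, ITGAM at 4331, FLT3 at 2809, MPO at 1844 and CD34 at 19.6, while CD14 at 2.83 and KIT at 0.666 fell below. Of 15 markers of other cell types 4 reached 10, among them COL1A1 at 149, PDGFRB at 111 and KRT8 at 96.3. EPCAM, KRT18, COL1A2, HBB and ALB were listed at 0.

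The sequences that tie the family to the perturbation are the shRNA targets. In each line below the 7 capital bases are those that would pair with bases 2 to 8 of the guide strand, its seed, if that strand starts at the complement of the last target base.
shRNA1 target: tcagggaaggtggTCATAATa
shRNA2 target: cgccaaactgctcTCAGTATa
Both 21-base targets lay in coding sequence of SPINK2 (ENSG00000128040.10, minus strand of chr4:56809860-56821742, GRCh38) and both crossed an exon junction. In the canonical transcript the shRNA1 target started at base 395 and joined exons 3 and 4 (outer genomic ends 56810168 and 56811688), and the shRNA2 target started at base 287 and joined exons 2 and 3 (outer genomic ends 56811776 and 56820537). The shRNA1 target was present in 4 of 6 annotated SPINK2 transcripts and the shRNA2 target in 3 of 6.

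No other inhibitor held either target. Over the canonical transcripts of the other 67 inhibitor genes the longest exact run shared with a target was 10 bases. For shRNA1 it lay in SPINK5, the Kazal inhibitor of skin proteases, in coding sequence. For shRNA2 it lay in the 3′ UTR of SERPINA3, an inhibitor of chymotrypsin, and in the coding sequence of SERPINB4, a squamous cell serpin. The capitals mark the shared run.
SPINK5 against shRNA1: TCAGGGAAGGatacatgtgat
SERPINA3 against shRNA2: agcagtgggGCTCTCAGTAag
SERPINB4 against shRNA2: gagccacggtCTCTCAGTATc
SPINK5 and SERPINA3 were listed at 0 in these cells and SERPINB4 had 3 reads over the 6 libraries. Shorter 7-base matches to the seeds were also sought, over whole canonical transcripts and without allowance for their length, so the shares below are no trait of the inhibitors. Among the 19 detected inhibitors other than SPINK2, the shRNA1 seed site was found in 2 (10.5%, SERPINB2 and TIMP2) and the shRNA2 seed site in 3 (15.8%, SERPINE3, SERPINI1 and TIMP2), beside 17.4% and 22.8% of the canonical transcripts of 12444 detected protein-coding genes. TIMP2, an inhibitor of matrix metalloproteinases, was the detected inhibitor with both, and its sites lay close together in its 3′ UTR (chr17:78853921-78853941 and chr17:78853896-78853916, minus strand), shown here with the seed site in capitals.
TIMP2 against shRNA1: agttggtaagatgTCATAATg
TIMP2 against shRNA2: agtccatgtgattTCAGTATa
A match of letters is no evidence of silencing, and the response of TIMP2 to either shRNA was not tested.

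The recovered reads of SPINK2 were 7 in library 1, 9 in library 2, 56 in library 3, 63 in library 4, 53 in library 5 and 6 in library 6. Libraries 3, 4 and 5 were high and libraries 1, 2 and 6 low, with no library in between. The interval of the lowest library (2.20 to 13.1 reads) ended below that of the highest (48.4 to 80.6 reads), a 10.5-fold range. The mean over all libraries was 32.3 normalized counts, or 42.1 per kb of exon, above 20.5% of detected protein-coding genes. As libraries of both labels enter this mean, it is not the level of the line without silencing.

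Among the 10 SPINK genes of the rule, SPINK8 was the other member above a mean of 10. SPINK8, a Kazal-type relative on chr3:48306842-48333661 (minus strand), had 48, 42, 27, 36, 32 and 53 reads in libraries 1 to 6. Library 6 was highest and library 3 lowest, a 1.96-fold range, and the intervals of these libraries did not overlap (39.7 to 69.3 reads against 17.8 to 39.3). The exons of SPINK2 add up to 0.766 kb and those of SPINK8 to 0.812 kb, and the order of both genes, also per kb, differed between libraries: SPINK2 had more reads than SPINK8 in libraries 3, 4 and 5 (56, 63 and 53 against 27, 36 and 32) and fewer in libraries 1, 2 and 6 (7, 9 and 6 against 48, 42 and 53). Averaged over all libraries, SPINK8 lay at 48.6 and SPINK2 at 42.1 per kb of exon, an order that does not hold in each library.

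Intervals of the lowest and the highest library that did not overlap were common at this level. Over all 3175 genes with a mean of 10 to 40, the intervals of the libraries with the fewest and the most reads were apart in 22.8%. Both libraries were picked after their reads were seen, so counting error alone gives some of these gaps. Gaps of any size count, so this share does not say how often a range as wide as that of SPINK2 occurs. Of the 5 inhibitors in that range this held for SPINK2 and SPINK8, and not for the other three, which include SERPINE3 and SERPINI2.

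The rest of the SPINK family was close to silent. SPINK4, a Kazal inhibitor known from intestinal goblet cells, had 6 reads in all, of which 4 were in library 2 and 1 each in libraries 3 and 5. SPINK13 and SPINK7 had 1 read each, in library 2 and library 1. The other 5 genes were listed at 0: SPINK1, the trypsin inhibitor of the pancreas, SPINK5, SPINK6, SPINK9 and SPINK14. A count of 0 over 6 libraries allows up to 3 reads, a mean of 0.5. The 7 SPINK genes that sit together on chr5:147824572-148339852 all had at most 1 read, while the nearest protein-coding genes on either side, JAKMIP2 and FBXO38, had means of 575 and 1554.

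**Figure D1:**
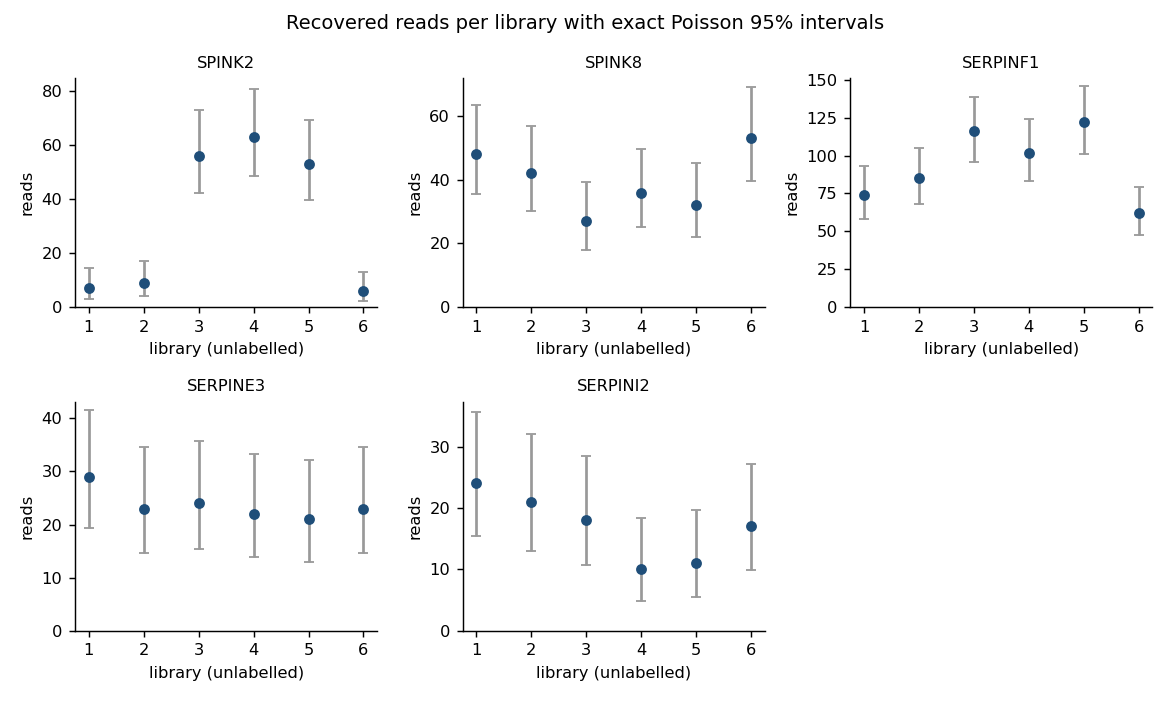
Reads (vertical axis, from 0) recovered in each of 6 unlabelled libraries (horizontal axis) for 5 inhibitors with a mean of 10 to 100; points are reads and bars exact Poisson 95% intervals. SPINK2 has 53 to 63 reads in 3 libraries and 6 to 9 in the other three, whereas SERPINE3 stays between 21 and 29.

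Across the whole set, 20 of the 68 inhibitor genes (29.4%) had a mean of at least 10, compared with 63.1% of 19708 protein-coding genes. A further 22 were above 0 but below 10, and 26 (38.2%) were listed at 0, against 18.2% of protein-coding genes. Of the 20 detected genes, 10 reached a mean of 1000, 4 lay between 100 and 1000 and 6 between 10 and 100. The detected inhibitors had a median of 1044 normalized counts, near the 1236 of detected protein-coding genes. Per kb of exon these medians were 304.5 for detected inhibitors and 215.5 for detected protein-coding genes, so their order depends on division by length. Most inhibitor genes were thus not detected, and those detected were spread widely around these medians. Just outside the threshold were A2M at 8.29, SERPINC1 at 5.32 and SERPINF2 at 5.31, and SERPINI2 at 16.7 was the lowest member inside it.

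Ordered per kb of exon, CST7 led with 15326, followed by SERPINB1 with 5167, TIMP1 with 3492, SLPI with 2413 and CST3 with 2103. CSTA (1802), SERPINB10 (1748), CSTB (1370) and SERPINB8 (1046) came next, and then TIMP2 (411), SERPINB2 (199), SERPINA1 (133), SERPINI1 (96.3), SPINT1 (63.6), SPINK8 (48.6), SPINK2 (42.1), SERPINF1 (31.1), SERPINE3 (9.02) and SERPINI2 (6.24). These levels carry no error, so neighbours in the order cannot be separated. The order also depends on the length used. Per kb of the longest transcript, CSTA at 2999 lay above SLPI at 2413 and CST3 at 2314, while CST7, SERPINB1 and TIMP1 kept their places. The canonical transcripts of CST3 (793 bases) and CSTB (588 bases) are much shorter than their exon unions (3.615 and 3.82 kb). Both would have higher levels per kb of that transcript. SPINK2 ranked 16 of 68 inhibitor genes by this mean, which averages libraries with 53 to 63 and with 6 to 9 SPINK2 reads, so its rank within a library may be higher or lower. CST7 held 40.9% of the summed level per kb of the 72 protein-coding members.

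**Figure D2:**
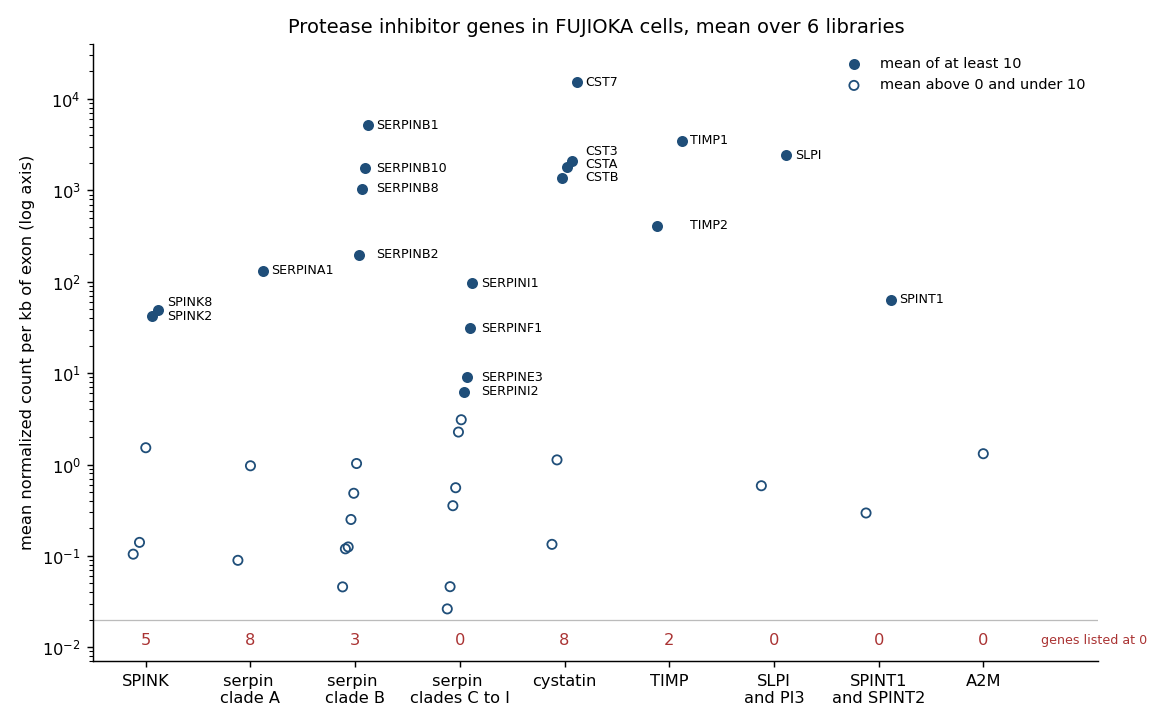
Mean normalized count per kb of exon (log axis) of 67 inhibitor genes by family; filled points have a mean of at least 10, open points lie above 0 and under 10, and the red figures at the foot count genes listed at 0. CST7 at 15326 is the highest point, and SPINK8 and SPINK2 at 48.6 and 42.1 are the only filled SPINK points.

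The cystatins were divided between a few strongly expressed genes and an otherwise silent family. CST7, or cystatin F, a leukocyte inhibitor targeted to lysosomes, had a mean of 13655 and lay above 99.5% of detected protein-coding genes per kb. CST3, the secreted cystatin C, had a mean of 7602. The cytosolic stefins CSTB and CSTA had means of 5234 and 2462. These were 4 of 14 protein-coding cystatin genes. CST6 had 4 reads over all libraries, CSTL1 had 1, and the remaining 8 were listed at 0. The 11 cystatin genes of chromosome 20 showed this side by side: CST3 lay between CST9 and CST4, both listed at 0, and CST7 lay at the far end, 1523 kb from the start of CSTL1.

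Serpins of clade B, which lack a classical signal peptide and mostly act inside cells, formed the other high group. SERPINB1, an inhibitor of elastase, proteinase 3 and cathepsin G, had a mean of 15743, the highest of all members before division by length. SERPINB8, a cytoplasmic serpin that can inhibit furin, had a mean of 6031. SERPINB10, known as bomapin and typical of haematopoietic cells, had a mean of 3766, and SERPINB2, the urokinase inhibitor PAI-2, had 544.

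The 10 clade B genes of chromosome 18 were split by position. SERPINB2, SERPINB10 and SERPINB8 are the last 3 in the row, within chr18:63871692-64019779, and all 3 were detected. The 7 genes before them had means of at most 4.65, with SERPINB13 at 28 reads in total, SERPINB3 at 5, SERPINB4 at 3 and SERPINB11 at 1 read, and SERPINB5, SERPINB12 and SERPINB7 listed at 0. SERPINB3 and SERPINB4 are nearly identical copies, so their few reads may be divided wrongly between them.

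On chromosome 6 the 3 clade B genes lie within 140 kb (chr6:2832332-2972165), all on the minus strand, and only the first of them was detected. SERPINB1 had a mean of 15743. SERPINB6, a cytosolic inhibitor that also binds cathepsin G, had 2, 2, 1, 1, 4 and 0 reads in libraries 1 to 6. SERPINB9, the granzyme B inhibitor of lymphocytes, had 1 read in each of libraries 1, 4 and 5 and none in the others. The nearest genes on either side, WRNIP1 and NQO2, had means of 3430 and 1535, so the low pair stood between expressed genes.

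Clade A serpins are mostly made by the liver and circulate in plasma. SERPINA1, alpha-1-antitrypsin, which inhibits neutrophil elastase, had a mean of 650 and was the 1 detected gene of 11. SERPINA10, the inhibitor that works with protein Z, had 8, 4, 3, 6, 8 and 3 reads, SERPINA5 had 2 reads in all, and 8 were listed at 0. The neighbours of SERPINA1 in the 344 kb cluster on chromosome 14, SERPINA2 and SERPINA11, were both listed at 0.

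The remaining serpins were low, with 5 of 11 detected. SERPINI1, neuroserpin, an inhibitor of tissue plasminogen activator, had a mean of 205. SERPINF1, or PEDF, a serpin without protease inhibiting activity, had a mean of 93.1. Its reads were 74, 85, 116, 102, 122 and 62 in libraries 1 to 6, with libraries 5 and 3 highest and library 6 lowest, a 1.97-fold range in which the intervals of library 6 (47.5 to 79.5) and library 5 (101 to 146) were apart. With a wider search range 2 solutions were found for SERPINF1, so its reads are less certain than those of the other members.

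SERPINE3 had 29, 23, 24, 22, 21 and 23 reads, the narrowest relative range of the detected members with recovered reads (1.38-fold). Of the exon bases of SERPINE3 30.3% overlapped exons of INTS6 on the opposite strand, a gene with a mean of 4231, and without a stated strand setting the reads of both cannot be told apart. SERPINI2 had 24, 21, 18, 10, 11 and 17 reads, highest in library 1 and lowest in library 4 (2.40-fold), with overlapping intervals, and shares 127 exon bases with WDR49 on the same strand. SERPINC1, antithrombin, had 4, 2, 9, 7, 5 and 5 reads, and SERPINF2, the plasmin inhibitor, had 6, 6, 3, 6, 2 and 9. Both lay within counting error across libraries.

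Among the TIMPs, TIMP1 (chrX:47582408-47586789) had a mean of 5049 and TIMP2 a mean of 2549. Per kb of exon TIMP1 was 8.51 times TIMP2, as the TIMP2 exons add up to 6.21 kb and those of TIMP1 to 1.446 kb. TIMP3, which binds the extracellular matrix, and TIMP4 were listed at 0. SLPI, a secreted inhibitor of elastase and cathepsin G, had a mean of 1438, while PI3, known as elafin, another elastase inhibitor on the same arm of chromosome 20, had 2 reads, both in library 1. SPINT1 and SPINT2, membrane-bound Kunitz inhibitors that act on matriptase and on the activator of hepatocyte growth factor, diverged in the same manner: SPINT1 had a mean of 225, whereas SPINT2 had 0, 2, 3, 1, 2 and 1 reads. A2M, the plasma protein that traps proteases of all classes, had 7, 6, 13, 9, 11 and 4 reads.

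The cleavage stimulation factor genes that share the CST prefix had means of 2411 (CSTF3), 1937 (CSTF1), 1807 (CSTF2) and 1558 (CSTF2T). They account for 4 of the 24 gene entries of the rule with a mean of at least 10. CSTF2 and CSTF2T are close copies, and their reads may be partly exchanged.

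The proteases that these inhibitors are known to act on were described from lists of genes. Their detection is to be read beside the 63.1% of all protein-coding genes that were detected, and a list near that share is no result about its genes. Of 10 granule and lymphocyte serine proteases 7 were detected, and CTSG, cathepsin G, was the highest of them with a mean of 103689. AZU1, the inactive protease homologue azurocidin, had 35566, PRTN3, proteinase 3, had 18044, ELANE, neutrophil elastase, had 830, PRSS57 had 232, GZMA had 42.6 and GZMB had 18.7. Per kb of exon CTSG lay at 75796 and PRTN3 at 16300, while SERPINB1 lay at 5167, SLPI at 2413 and SERPINA1 at 133.

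The listed trypsin-like and surface serine proteases were all but silent, whereas serine proteases of the other lists, such as PRSS57, GZMA, PLAU and F12, were detected. Of 24 trypsin-like and surface serine proteases, which included kallikreins, TMPRSS genes and acrosin (ACR, 0.323), the protease that SPINK2 is known to restrain in sperm, 13 were listed at 0 and 1 was detected. That gene was HGF at 5381, the hepatocyte growth factor, which has the fold of a protease and no protease activity. Of 10 plasminogen and coagulation genes 4 were detected: PLAUR, the urokinase receptor, at 1052, F12 at 432, PLAU, urokinase, at 392 and F10 at 18.04.

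Of 12 cysteine cathepsin genes, the targets of cystatins, 9 were detected. The highest means were those of CTSC at 11432, CTSB at 9469, CTSS at 3279 and CTSZ at 2610. CTSK (135), CTSO (125), CTSF (119), CTSH (104) and LGMN (27.3), which encodes legumain, were lower, and CTSL was listed at 0. Per kb of exon CTSB was highest at 899, followed by CTSS at 476 and CTSC at 460. That length counts every annotated exon, also those of minor transcripts, so this order rests on the annotation as well as on the reads. Among 26 metalloproteinase genes, the targets of TIMPs, 17 were detected, near the 63.1% of all protein-coding genes. By mean, without regard to length, ADAM15 at 9624, ADAM10 at 3620, ADAMTS1 at 3008, ADAM17 at 2312 and ADAM9 at 1220 were highest. Then came the matrix metalloproteinases MMP9, a gelatinase of neutrophils, at 876, MMP2 at 385 and MMP8 at 220. The other 9 detected genes had means between 12.3 (MMP19) and 199 (ADAMTS5). Per kb of exon the order differed: MMP9 at 375 lay below ADAM15 at 1462 and ADAMTS1 at 412. It lay above ADAM10 at 227, ADAM17 at 145 and ADAM9 at 68.9. The limit of exon length given for the cathepsins holds for this order too.

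Of 20 further inhibitors that the name rule did not take, 8 were detected. PEBP1, a kinase and protease inhibitor, had a mean of 14968, RECK, a membrane inhibitor of metalloproteinases, had 1516, CAST, the calpain inhibitor calpastatin, had 1408, PAPLN had 329, KAZALD1 had 217, A2ML1 had 43.0, TFPI, the inhibitor of tissue factor, had 28.0 and PI15 had 26.8. Detection in this list, 8 of 20, was likewise below the 63.1% of all protein-coding genes.

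**Figure D3:**
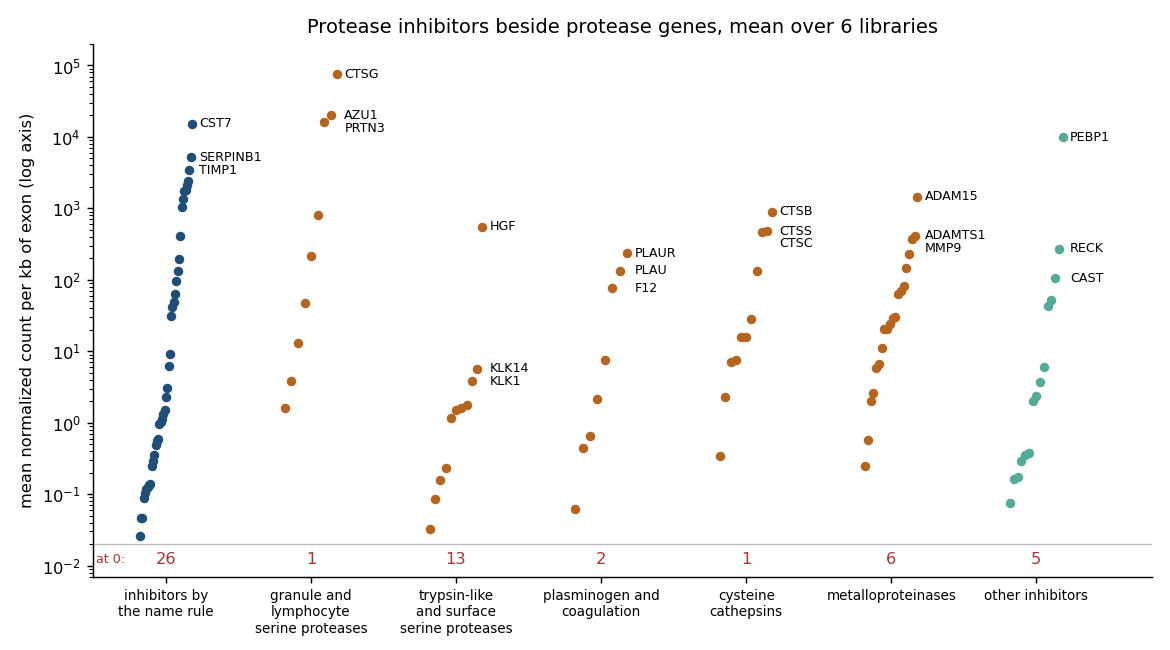
Mean normalized count per kb of exon (log axis) of 67 inhibitors of the name rule (blue), of 5 protease lists (brown) and of other inhibitors (green), with the count of genes listed at 0 in red at the foot; the 3 highest genes of each list are named. CTSG at 75796 lies above every inhibitor, and 13 of 24 trypsin-like and surface serine proteases are listed at 0.

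A sequence feature that the name rule did not use, the density of CpG in promoters, was read from RefSeq promoters (GRCh38.p14). Each spanned 300 bases, from 250 before to 50 after the start assigned to that promoter. That start need not be the gene start used above: the SPINK2 window (chr4:56821820-56822119) lay outside the bounds given for SPINK2. Promoters were found for 46 of the 68 inhibitors. CST7, CSTB, SERPINB10, TIMP2, CSTA and SLPI, all with means of at least 1000, were among those without one, so the shares below leave them out. The ratio of observed to expected CG dinucleotides had a median of 0.459 in 12 detected inhibitors and 0.208 in 34 inhibitors that were not detected. In all protein-coding genes these medians were 0.835 for 9809 detected genes and 0.408 for 4874 others. A ratio of at least 0.6 was present in 3 of the 12 detected inhibitors (25.0%), namely SERPINB1, CST3 and SPINT1, and in 5 of the 34 others (14.7%), against 80.7% of detected and 38.4% of undetected protein-coding genes. The SPINK2 promoter had a ratio of 0.423 and that of SPINK8 0.304. Among promoters with a high ratio were also those of SERPINB6 (0.912) and SERPINB9 (0.819), the low neighbours of SERPINB1 (0.839), and that of TIMP3 (0.788), listed at 0. Among the promoters found, the ratio was thus higher at the median in detected than in undetected inhibitors, as in all protein-coding genes. The exceptions named here were chosen after their values were seen.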

How the data were processed

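RNA from FUJIOKA cells was sequenced as read pairs on an MGI G400 instrument, with 3 libraries labelled shNEG and 3 labelled shSPINK2. Per the submitters' processing notes and the study's methods, the authors mapped the reads to hg38 (GRCh38) with STAR 2.7.11 after a quality check, took counts per gene from featureCounts and normalised those counts with DESeq2 1.40.0; the strand setting and the annotation release are not given in the sources used here. The value used here is the authors' mean normalized count of each gene over all 6 libraries, a signal deposited as 1 column with no value per library, hence with no SD. The 5 other numeric columns deposited hold the authors' own comparison of both groups (log2 fold change, its error, test statistic, p-value and adjusted p-value). None of these was used, so no test between groups was made here. The number of value columns that matched no sample was 0.

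The 85 members were taken by gene name, and members and lists were chosen with earlier results of these data known. Levels were divided by the length of the union of exons in GENCODE 44, which held 57532 of the 63236 gene identifiers (91.0%). This union includes exons of minor transcripts, so levels per kb depend on the annotation. A mean of at least 10 was called detected. The mean is a sum of whole reads, each weighted by the size factor of its library. The 6 weights were read from the values shared by genes with 1 read in 1 library. For members with a mean under 100 all combinations of whole reads from 0 to 3 times the mean were searched. Under a mean of 10 every possible combination was searched. Those that gave the deposited value to its 15 significant digits were kept. The search was tested on simulated data with means below that of SERPINF1 and no library above 3 times the mean, so the test does not cover SERPINF1. The libraries so recovered carry no label and were numbered 1 to 6 by descending size factor. The size factors spanned 4.85%, and the depth of each library is not known. Intervals are exact Poisson 95% intervals and cover counting error only. Python 3.11.15, numpy 2.4.6, pandas 2.3.3 and scipy 1.17.1 were used. A member and a marker gene that these rules would name are not reported here. Named are SPINK2, SPINK genes above 0, other members of at least 10, the 3 members just under 10 and members of the context lists of at least 10. Other genes below 10 are named for their place in a gene cluster or for their role and were chosen after their values were seen. Other thresholds, other lengths and other search ranges were tried as alternatives.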

Additional observations from a re-analysis of the deposited data

How the results depend on the processing

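No paired analysis was possible because no column used here carries the label of a library. Of the 85 entries, 24 were detected at a mean of at least 10. This became 46 with any mean above 0, 32 at a mean of at least 1, 19 at a mean of at least 50 and 20 without the cleavage stimulation factor genes. The share of genes set beside the members fell from 63.1% of protein-coding genes to 25.5% of all gene entries in the table, which include many noncoding genes. The share of the members' summed level held by the highest member was 40.9% per kb (CST7), 43.1% among the inhibitors alone (chosen after seeing the data) and 21.5% without regard to length, where SERPINB1 was highest. SPINK2 ranked 20 of the 72 protein-coding members per kb of exon, and 21 with the longest transcript or with the mean itself. Reads were recovered in a single way for 28 of 28 members, and for 27 with a search up to 4 times the mean or with 10 times the tolerance, the exception being SERPINF1. Without libraries 3, 4 or 5 the median of SPINK2 reads was 9 and without libraries 1, 2 or 6 it was 53, against 31 over all. For 4 other members of 10 to 100 the median without any library stayed between 85 and 102 (SERPINF1), 36 and 42 (SPINK8), 17 and 18 (SERPINI2) or at 23 (SERPINE3). The comparison of protein sequences with SPINK2 and the comparison of shSPINK2 with shNEG were not run. Members with a mean over 100 have no value per library, and the depth of each library is unknown.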

Other observations

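The SPINK2 reads of the unlabelled libraries fell into 2 separate clusters, with 7, 9 and 6 reads in libraries 1, 2 and 6 and 56, 63 and 53 reads in libraries 3, 4 and 5. The values used here do not tie any of these libraries to shNEG or shSPINK2, and no group was assigned from them.

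Of the 22 inhibitors above 0 and below a mean of 10, 6 had a read in every library: A2M, SERPINC1, SERPINF2, SERPINA10, SERPINE2 and SERPINB13, with 28 to 50 reads in total. SERPINE2, known as protease nexin-1, ranged most, with 1, 8, 5, 2, 11 and 3 reads, although the intervals of libraries 1 and 5 overlapped. The 5 genes with a total of 1 read were CSTL1, SERPINB11, SERPINH1, SPINK13 and SPINK7. SERPINH1, the collagen chaperone HSP47, which is a serpin without protease inhibiting activity, had this read in library 2. These genes were named after their values were seen.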
